A study of Homo sapiens with 12 samples.

Results

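Genes that responded differently to knockdown of NONO and of PKM2 were sought in MDA-MB-231 cells by joining both deposited tables on the gene identifier and testing, in 1 model over 12 libraries, the change after PKM2 knockdown minus the change after NONO knockdown. The difference was called for 8497 of 15995 genes tested, which is 53.1% of them, and 1171 of the 8497 had moved in opposite directions. MDA-MB-231 is an established human line of mesenchymal triple-negative breast cancer. Poly(A)-selected RNA was sequenced from 4 groups of 3 libraries. In the NONO experiment, negative control cells (NC) stood beside cells with NONO knocked down, and in the PKM2 experiment a separate NC group stood beside cells with PKM2 knocked down. All groups were MDA-MB-231 cells, the series text names siRNA as the means, and no library was shared between the experiments. The labels do not say whether replicates were separate cultures, so P values measure only the spread between these libraries.

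NONO is an RNA- and DNA-binding protein of the DBHS family, whose members hold together the nuclear bodies called paraspeckles and take part in transcription, splicing and nuclear retention of RNA. PKM2 is the isoform of the pyruvate kinase gene PKM that predominates in proliferating and tumour cells. It catalyses the last step of glycolysis, and a share of it is found in the nucleus, where it has been described as a cofactor of transcription.

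Levels are given as CPM, the counts of a gene relative to the sum of its library, scaled by TMM factors over the 12 libraries, and changes as log2 fold changes with their standard errors. Adjusted P values are those of the quasi-likelihood test in edgeR, adjusted after Benjamini and Hochberg over all genes tested, and a change was called at an adjusted P below 0.05. "Higher" and "lower" differences mean higher or lower after PKM2 knockdown, relative to its NC, than after NONO knockdown relative to its own. Library totals lay between 19861762 and 20981712 estimated counts in the NONO experiment and between 24097948 and 28455268 in the PKM2 experiment. Mesenchymal markers were high throughout, with VIM at 3291 to 4466 TPM. The luminal marker ESR1 (at most 0.12 TPM), the leukocyte marker CD3E (listed at 0 in every library) and the fibroblast marker LUM (at most 0.03 TPM) were at or near 0. Other luminal markers were low but present, with GATA3 at 1.33 to 4.37 TPM, EPCAM at 1.29 to 3.73 TPM and FOXA1 at 0.39 to 1.99 TPM. So were COL1A1, of the fibroblast markers, at 2.17 to 9.93 TPM and the endothelial PECAM1 at 0.18 to 2.31 TPM. In the NONO experiment NC replicate 1, and in the PKM2 experiment knockdown replicate 3, lay farther from their replicates than the others did, so results that rest on them are also given without them. Because each knockdown was made in its own experiment, the knockdown, the reagent, the harvest and the annotation release cannot be told apart as sources of a difference. In bulk RNA, fewer cells of a state and less RNA per cell cannot be told apart either.

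The targeted genes fell only in their own experiment. NONO was at 383, 349 and 360 CPM in NC and at 61.2, 63.6 and 61.7 CPM after NONO knockdown, and at 375, 357 and 372 CPM in the other NC group and 450, 464 and 453 CPM after PKM2 knockdown. PKM was at 2153, 2103 and 2121 CPM in the NC libraries of the NONO experiment, 2569, 2602 and 2569 CPM after NONO knockdown, 2302, 2244 and 2350 CPM in the NC libraries of the PKM2 experiment, and 221, 233 and 239 CPM after PKM2 knockdown. No groups overlapped within an experiment, so each targeted gene was lowered by its own knockdown and stood slightly higher after the other.

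Most differences came with a change in the PKM2 experiment alone. Of the 8497 genes, 4964 (58.4%) were called after PKM2 knockdown but not after NONO knockdown, 1566 had moved in the same direction by a different amount, 1171 had moved in opposite directions, 616 were called after NONO knockdown alone, and 180 were called in neither comparison taken singly. Over all genes tested, 4995 (31.2%) were called after NONO knockdown and 10792 (67.5%) after PKM2 knockdown, and the median absolute log2 fold change was 0.20 and 0.48. The difference was higher for 4110 genes (25.7%) and lower for 4387 (27.4%). Among the 2710 called genes whose changes differed by more than 2-fold, lower differences were the larger group, with 1780 against 930. Across genes, which are not independent replicates, the log2 fold changes of the knockdowns had a Pearson r of 0.257 and a Spearman rho of 0.274. In all, 7161 genes were called with any 1 library left out.

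Opposite changes were found for 1171 of 15995 genes, which is 7.32%. Of these, 561 fell after NONO knockdown and rose after PKM2 knockdown, and 610 did the reverse. Most of the changes were small. The median log2 fold changes were -0.36 and 0.52 in the first class and 0.29 and -0.54 in the second, 134 genes had a change of at least 1.5-fold in both experiments, and 27 (0.169%) had one above 2-fold in both. The 27 comprised 17 genes that fell after NONO knockdown and 10 that rose, 20 of them with a gene symbol. They were weakly expressed, with a median of 1.64 CPM, and 5 reached a mean of 5 CPM. In 1111 of the 1171 genes no NC library overlapped a knockdown library in either experiment, against 34.5% of all genes tested, although the calls themselves favour such genes.

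The classes are described here by GC content, length, level and gene type, with no test. Genes lowered by NONO knockdown and raised by PKM2 knockdown had a median GC content of 45.4% and a median length of 3094 bases, and those with the reverse pattern had 50.2% and 3441 bases, beside 48% and 2843 bases over all genes. Both classes were expressed at higher levels than the tested genes as a whole (median 43.7 and 64.8 CPM against 20.4 CPM) and were 95.5% and 94.6% protein-coding, against 81.1%. The level comes from the counts that the call used and is not particular to opposite genes. Genes that moved the same way by different amounts had a median of 47.0 CPM, and genes not called had 6.39 CPM. Length and gene type were not compared at equal level. The difference itself followed GC content. In the fifth of genes with the lowest GC content the median log2 difference was 0.10, and in the fifth with the highest it was -0.22. With the trend taken out, 1003 of the 1171 genes (85.7%) were still called opposite, and 25 had a changed sign in 1 experiment.

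Small opposite calls also moved with the scaling. Taking library size alone shifted the median log2 fold change after PKM2 knockdown to -0.13, from -0.01, and shared 832 of the 1171 calls (71.0%). On log2(TPM + 1) with limma, 502 (42.9%) were shared. Over these scalings and the GC and length correction, 64 of the 1171 genes had an experiment with a changed sign, among them the list members LSS, SMARCA4, PLXNA1, EPHB4, MDM2, EGLN1, PSMD5, ZNF320 and SEMA3C. With each library left out in turn, the opposite call held in 3 of 12 fits for LSS and MDM2, 5 for EPHB4, 9 for ZNF320, 10 for PLXNA1 and EGLN1, 11 for SEMA3C and all 12 for SMARCA4 and PSMD5. None of the genes described by library below was among the 64. Genes below a mean of 1 TPM were not fitted on the TPM scale and counted as unchanged there.

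DENND6A and RAB30, both of vesicle traffic, fell after NONO knockdown and rose after PKM2 knockdown. DENND6A (ENSG00000174839, chromosome 3 from 57625457 to 57693089 of GRCh38 in GENCODE 29), an exchange factor for a Rab GTPase, was at 18.3 CPM in each NC library of the NONO experiment and at 9.13, 8.15 and 8.61 CPM after the knockdown. It was at 20.6, 20.5 and 20.2 CPM in the other NC group and at 46.3, 41.9 and 39.0 CPM after PKM2 knockdown. Both NC groups thus lay together, with the NONO knockdown libraries below and the PKM2 knockdown libraries above them. The log2 fold changes were -1.08 ± 0.09 and 1.05 ± 0.07, and their difference was 2.14 ± 0.11 (SE, edgeR, adjusted P = 9.83e-11).

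RAB30, a Golgi Rab GTPase on chromosome 11 (82973133 to 83071923), went from 22.3, 19.2 and 21.3 CPM to 8.49, 8.91 and 9.32 CPM after NONO knockdown. In the PKM2 experiment it went from 13.8, 15.3 and 15.1 CPM to 30.7, 28.9 and 26.9 CPM. The NC groups differed here, the one of the NONO experiment being 1.42-fold higher, but no NC library overlapped a knockdown library of its experiment. The difference was 2.20 ± 0.12 (edgeR, adjusted P = 2.20e-10).

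NANOS1 encodes a member of the Nanos family of RNA-binding translational repressors and lies on chromosome 10 from 119029716 to 119033732. It was at 6.65, 7.06 and 5.10 CPM in NC and 1.97, 2.31 and 1.92 CPM after NONO knockdown. It was at 6.87, 6.97 and 7.92 CPM in the NC libraries of the PKM2 experiment and rose to 14, 16.5 and 16.9 CPM. The groups did not overlap, and the difference was 2.71 ± 0.21 (edgeR, adjusted P = 9.13e-09). DUSP8, a phosphatase of the JNK and p38 kinases, had the same pattern at lower levels, from 2.41, 2.69 and 2.96 CPM to 1.09, 1.71 and 0.962 CPM, and from 2.24, 2.26 and 3.10 CPM to 7.15, 6.28 and 6.83 CPM. Its difference was 2.51 ± 0.30. TMEM236, which encodes a transmembrane protein, was at 3.40 to 3.81 CPM in NC and 1.73 to 1.82 CPM after NONO knockdown, and at 2.55 to 3.67 CPM and then 9.34 to 11.7 CPM in the PKM2 experiment, a difference of 2.87 ± 0.23. These 5 genes kept their opposite call with any 1 library left out.

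The remaining genes of this direction that changed above 2-fold rested on few counts or on shared sequence. TMEM265 went from 1.08, 1.58 and 1.23 CPM to 0, 0.453 and 0.101 CPM after NONO knockdown and from 1.07, 1.05 and 1.18 CPM to 5.89, 5.23 and 6.31 CPM after PKM2 knockdown, but all of its exon bases are shared with the gene AC106886.5 on the same strand. SUN3, a protein of the nuclear envelope, was at 0.882 to 1.14 CPM and then 0.203 to 0.346 CPM in the NONO experiment, and at 0.524 to 0.621 CPM and then 1.45 to 1.64 CPM in the other. TSPAN8, a tetraspanin of the cell surface, had 18 counts in the NC libraries and 3 after NONO knockdown, a ratio of 5.91 (95% counting interval 1.72 to 31.3), and went from 0.143 to 0.173 CPM to 0.615 to 0.890 CPM after PKM2 knockdown. Groups did not overlap for these genes, with levels low throughout.

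SFT2D3 had 65, 11 and 0 counts in the NC libraries of the NONO experiment and 0 in the knockdown libraries, so that 65 of its 76 NC counts lay in NC replicate 1, and no fold is given. It had 0, 19 and 22 counts in the other NC group and 90, 143 and 147 after PKM2 knockdown. Its NC libraries thus differed among themselves as widely as from the knockdown, and all of its exon bases lie within WDR33 on the opposite strand. PRRT2, a presynaptic protein, had 1 count in the NC libraries of the PKM2 experiment and 9 after the knockdown, a ratio of 9.55 (95% counting interval 1.32 to 419), while the NC libraries of the NONO experiment held 53 to 98. AMH, a hormone of the TGF-beta family, was 6.82-fold higher in the NONO experiment's NC group than in the other NC group. Such a gap sits between experiments, and its part in the result was not tested. DENND10P1 is a pseudogene whose reads may be shared with its parent gene. With each library left out in turn, the opposite call held in 8 of 12 fits for SFT2D3 and TSPAN8, 9 for DENND10P1, 5 for AMH, 4 for PRRT2, and 2 for SLC9A9, a sodium-proton exchanger of endosomes. SLFN12L, of the Schlafen family, kept its call in all 12 with a difference of 2.08 ± 0.32, but its annotation differed between the tables.

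In the reverse direction, CSF3 (chromosome 17, 40015361 to 40017813), the granulocyte colony-stimulating factor, rose after NONO knockdown and fell after PKM2 knockdown. It was at 34.2, 43.6 and 39.2 CPM in NC and 79.5, 76.4 and 73.2 CPM after NONO knockdown, and at 27.6, 37.7 and 30.1 CPM in NC and 16.2, 12.4 and 12.4 CPM after PKM2 knockdown. The NC groups overlapped each other, and neither overlapped its knockdown. The log2 fold changes were 0.97 ± 0.11 and -1.22 ± 0.12, a difference of -2.18 ± 0.16 (edgeR, adjusted P = 7.81e-09), and the opposite call held with any 1 library left out. CCDC190, a coiled-coil protein gene, went from 0.882 to 1.58 CPM up to 3.32 to 4.25 CPM after NONO knockdown, and fell from 0.932 to 1.28 CPM to 0.283 to 0.307 CPM after PKM2 knockdown.

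TNFSF15, ASB2, ITGA10, ITGB4, NOX5 and MUC5B shared a further feature, an NC replicate 1 in the NONO experiment far below the other NC libraries. TNFSF15 (chromosome 9, 114784635 to 114806126), a cytokine of the TNF family, was at 12.3, 31.9 and 28.0 CPM in NC and 65.6, 63.0 and 53.9 CPM after NONO knockdown. It was at 12.6, 16.6 and 17.2 CPM and then 4.84, 3.47 and 3.72 CPM in the PKM2 experiment. Its log2 fold change after NONO knockdown was 1.33 ± 0.21, and 1.01 without the first NC library.

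ASB2, a substrate-recognition subunit of a ubiquitin ligase, was at 6.30, 18.4 and 17.3 CPM in NC and 30.6 to 35.8 CPM after NONO knockdown, with 3.73 to 4.99 CPM and then 1.27 to 1.64 CPM in the PKM2 experiment. NOX5, a calcium-activated NADPH oxidase, was at 1.67, 6.36 and 7.37 CPM and then 9.38 to 12.3 CPM, against 0.898 to 1.85 CPM and then 0.210 to 0.324 CPM. MUC5B, a gel-forming mucin, was at 0.788, 2.37 and 3.32 CPM and then 4.31 to 6.54 CPM, against 1.03 to 1.2 CPM and then 0.202 to 0.631 CPM. Each remained opposite without the first NC library, with changes after NONO knockdown of 0.88, 0.64 and 0.85, although the call of NOX5 and of MUC5B was lost in 2 of the 12 fits that left out 1 library. Their NC groups also differed, ASB2 being 3.18-fold and NOX5 3.53-fold higher in the NONO experiment's NC group.

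OPN3, a non-visual opsin, rose from 7.15 to 9.20 CPM to between 15.2 and 15.5 CPM after NONO knockdown and fell from 27.9 to 36.0 CPM to between 12.7 and 19.9 CPM after PKM2 knockdown. Its NC group in the PKM2 experiment was 3.87-fold that of the NONO experiment, so both knockdown groups ended near each other, and 45.5% of its exon bases are shared with KMO on the opposite strand. The non-coding genes OGFRP1, NFYC-AS1 and LINC00886 lay at or below 2.92 CPM in every library, and the opposite call held in 6 of 12 fits for OGFRP1 and 3 for LINC00886.

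DNA replication genes had the largest opposite share of the gene lists, followed by laminins and matrix glycoproteins (29.2%) and integrins (28.6%). Of 31 members tested, 26 (83.9%) were called, beside 53.1% of all genes, 20 of them lower and 6 higher. Of the 31, 11 (35.5%) were opposite, beside 7.32% of all genes. The median log2 difference was -0.44, against -0.02 over all genes. After NONO knockdown 19 members rose and 2 fell, with a median log2 fold change of 0.20. After PKM2 knockdown 7 rose and 13 fell, with a median of -0.08, so the list as a whole did not move 1 way there. In 10 of the 11, expression rose after NONO knockdown and fell after PKM2 knockdown (PCNA, MCM6, E2F1, MCM3, POLE2, RFC4, MCM5, GINS2, RFC3 and CDC45), and FEN1 did the reverse.

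PCNA, the sliding clamp of the replicative polymerases, was at 129, 123 and 116 CPM in NC and 159, 166 and 165 CPM after NONO knockdown. It was at 137, 136 and 133 CPM in NC and 28.8, 29.9 and 35.1 CPM after PKM2 knockdown. The NC groups lay close together, the rise was a log2 fold change of 0.41 ± 0.06 and the fall one of -2.11 ± 0.07, and the difference was -2.53 ± 0.09 (edgeR, adjusted P = 1.03e-12). MCM6, a subunit of the replicative helicase, went from 125, 116 and 114 CPM to 178, 178 and 192 CPM, and from 139, 129 and 130 CPM to 51.6, 52.0 and 53.3 CPM. E2F1, a transcription factor of the G1/S transition, went from 50.3, 41.2 and 44.1 CPM to 62.3, 63.5 and 62.3 CPM, and from 44.7, 44.1 and 44.4 CPM to 18.1, 19.2 and 20.3 CPM. In both genes the NC libraries of the experiments interleaved or adjoined and the knockdown libraries lay on either side of them.

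FEN1, the flap endonuclease that trims Okazaki fragments, moved the other way. It went from 241, 197 and 200 CPM down to 151, 156 and 153 CPM after NONO knockdown and from 237, 218 and 215 CPM up to 254, 256 and 290 CPM after PKM2 knockdown, a difference of 0.72 ± 0.10. The rise of FEN1 was small, and its groups did not overlap. The replication initiators were not uniform either, since CCNE1, the G1/S cyclin E, fell in both experiments (log2 fold changes -0.89 ± 0.21 and -4.91 ± 0.30). All 11 opposite members except CDC45 kept their call with any 1 library left out, and CDC45 kept it in 10 of 12 fits. Without NC replicate 1 of the NONO experiment 13 members were opposite, and without it and PKM2 knockdown replicate 3 together 14 were.

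The promoters of the 3 opposite members with the largest differences are shown beside that of FEN1, the opposite member of the reverse direction, as 300 bases from 250 before the RefSeq start to 50 from it (GRCh38.p14, 5′ to 3′ on the strand of the gene). Capitals mark matches, on either strand, to 4 spellings of the E2F site, TTTCCCGC, TTTGGCGC, TTTCGCGC and TTTGCCGC, which were chosen after the values were seen and can overlap.
PCNA, chr20:5126573-5126872, minus strand: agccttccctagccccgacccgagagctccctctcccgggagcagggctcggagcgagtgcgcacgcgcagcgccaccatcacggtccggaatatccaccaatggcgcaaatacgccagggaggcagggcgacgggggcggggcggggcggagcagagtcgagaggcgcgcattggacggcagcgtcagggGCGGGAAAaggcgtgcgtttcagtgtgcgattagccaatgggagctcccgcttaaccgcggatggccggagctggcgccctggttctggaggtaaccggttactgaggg
MCM6, chr2:135876394-135876693, minus strand: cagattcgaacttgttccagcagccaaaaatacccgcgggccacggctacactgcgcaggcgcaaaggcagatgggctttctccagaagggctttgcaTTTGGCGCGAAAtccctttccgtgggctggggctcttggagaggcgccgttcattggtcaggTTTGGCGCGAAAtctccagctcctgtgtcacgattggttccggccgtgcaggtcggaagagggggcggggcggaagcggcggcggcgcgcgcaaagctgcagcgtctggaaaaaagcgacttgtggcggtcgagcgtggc
E2F1, chr20:33686336-33686635, minus strand: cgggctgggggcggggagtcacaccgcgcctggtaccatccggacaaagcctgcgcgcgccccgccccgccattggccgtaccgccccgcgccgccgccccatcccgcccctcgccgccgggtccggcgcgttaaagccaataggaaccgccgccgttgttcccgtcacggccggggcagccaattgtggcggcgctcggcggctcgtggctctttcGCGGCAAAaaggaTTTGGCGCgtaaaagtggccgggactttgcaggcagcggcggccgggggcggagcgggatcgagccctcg
FEN1, chr11:61792661-61792960, plus strand: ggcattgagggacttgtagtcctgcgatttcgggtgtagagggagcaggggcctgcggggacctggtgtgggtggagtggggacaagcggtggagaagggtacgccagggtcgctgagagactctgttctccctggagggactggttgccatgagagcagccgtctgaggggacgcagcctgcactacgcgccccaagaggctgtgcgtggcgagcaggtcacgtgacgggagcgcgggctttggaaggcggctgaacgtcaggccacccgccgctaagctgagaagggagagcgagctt

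The match begins 59 bases before the start in PCNA, 152, 148, 90 and 86 bases before it in MCM6, where matches on opposite strands overlap, and 33 and 20 bases before it in E2F1. FEN1 has none in this window, and neither have RFC4 and CDC45, which rose after NONO knockdown and fell after PKM2 knockdown as PCNA did. RefSeq promoters were matched for 10936 of the genes tested (68.4%), and 590 of them (5.40%) held a match. Of the 27 promoters of DNA replication genes 16 (59.3%) did, and of the 10 opposite members with a promoter 7 did. Among all opposite genes, 42 of 503 promoters (8.35%) held a match where expression rose after NONO knockdown and fell after PKM2 knockdown, and 16 of 446 (3.59%) where it did the reverse. A match describes these letters only and shows no binding.

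Neighbouring lists of the cell cycle moved less sharply. Of 28 genes of homologous recombination and the Fanconi pathway, which repair broken and crosslinked DNA, 15 (53.6%) were lower and 4 (14.3%) higher. Over all genes 27.4% were lower and 25.7% higher. FANCD2, PALB2 and BLM were among the opposite members. FANCD2, the ubiquitinated core protein of the Fanconi pathway, went from 39.7, 44.2 and 41.2 CPM to 58.2, 55.0 and 57.2 CPM after NONO knockdown, and from 37.1, 39.3 and 37.4 CPM to 26.6, 25.6 and 24.6 CPM after PKM2 knockdown. Of the serine and folate list 9 of 10 (90%) were called, 4 higher and 5 lower, beside 53.1% of all genes called. Its member TYMS, thymidylate synthase, rose by 0.30 ± 0.06 on the log2 scale after NONO knockdown and fell by 1.44 ± 0.06 after PKM2 knockdown. MTHFD1, which interconverts folate carriers, was the other opposite member, at 0.19 and -0.44. The 30 genes of G2/M and mitosis were split, 9 (30%) higher and 11 (36.7%) lower, with a median difference of 0.06 that changed sign on the TPM scale. Its largest difference was that of MKI67, the Ki-67 antigen, at -0.97 ± 0.13.

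NRF2 targets moved the other way. NRF2 is the transcription factor that switches on genes of glutathione synthesis, detoxification and iron storage under oxidative or electrophilic stress. Of 28 members tested, 24 (85.7%) were higher, beside 25.7% of all genes, and TXNRD1, a thioredoxin reductase, was the single lower one. The median log2 difference was 0.53. After PKM2 knockdown 24 members rose and 3 fell, and after NONO knockdown 7 rose and 11 fell. Those that fell after NONO knockdown and rose after PKM2 knockdown were OSGIN1, HMOX1, EPHX1, SLC7A11, SRXN1, GCLC and ABCC1, 7 members or 25% of the list.

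OSGIN1, an oxidative stress-induced growth inhibitor, was at 14.9, 14 and 14.4 CPM in NC and between 8.97 and 10.1 CPM after NONO knockdown. It was at 13.0, 13.0 and 12.6 CPM in NC and 48.1, 49.1 and 52.4 CPM after PKM2 knockdown. No groups overlapped within an experiment, and the difference was 2.52 ± 0.11 (edgeR, adjusted P = 6.73e-12). HMOX1, the inducible heme oxygenase, went from 25.8, 21.1 and 21.4 CPM to 12.1, 12.9 and 11.5 CPM, and from 18.0, 23.1 and 21.6 CPM to 28.7, 29.3 and 32.5 CPM. GCLC, the catalytic subunit of the first enzyme of glutathione synthesis, went from 51.0, 52.4 and 51.5 CPM to 39.7, 40.5 and 37.3 CPM, and from 48.4, 48.5 and 47.4 CPM to 60.2, 63.1 and 63.9 CPM. The changes of GCLC were small but larger than the spread of every group.

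SLC7A11, the cystine importer that feeds glutathione synthesis, was at 243, 218 and 223 CPM and then 187, 188 and 180 CPM in the NONO experiment, and at 225, 259 and 234 CPM and then 471, 433 and 351 CPM in the PKM2 experiment, where the third knockdown library was the lowest. EPHX1, the microsomal epoxide hydrolase, had log2 fold changes of -0.50 ± 0.09 and 0.70 ± 0.08. SRXN1, which repairs oxidised peroxiredoxins, had -0.52 ± 0.07 and 0.37 ± 0.07. Other members responded in 1 experiment or in both alike. AKR1B10, an aldo-keto reductase, was at 0.202 to 0.683 CPM in the NC and NONO knockdown libraries and at 6.14, 6.41 and 7.32 CPM after PKM2 knockdown. FTL, the ferritin light chain, rose in both experiments, from 3544 to 4035 CPM up to 4252 to 4404 CPM and from 3682 to 3809 CPM up to 10539 to 12463 CPM. TXNRD1 fell in both, by 0.26 ± 0.04 and by 0.96 ± 0.05 on the log2 scale.

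**Figure D1:**
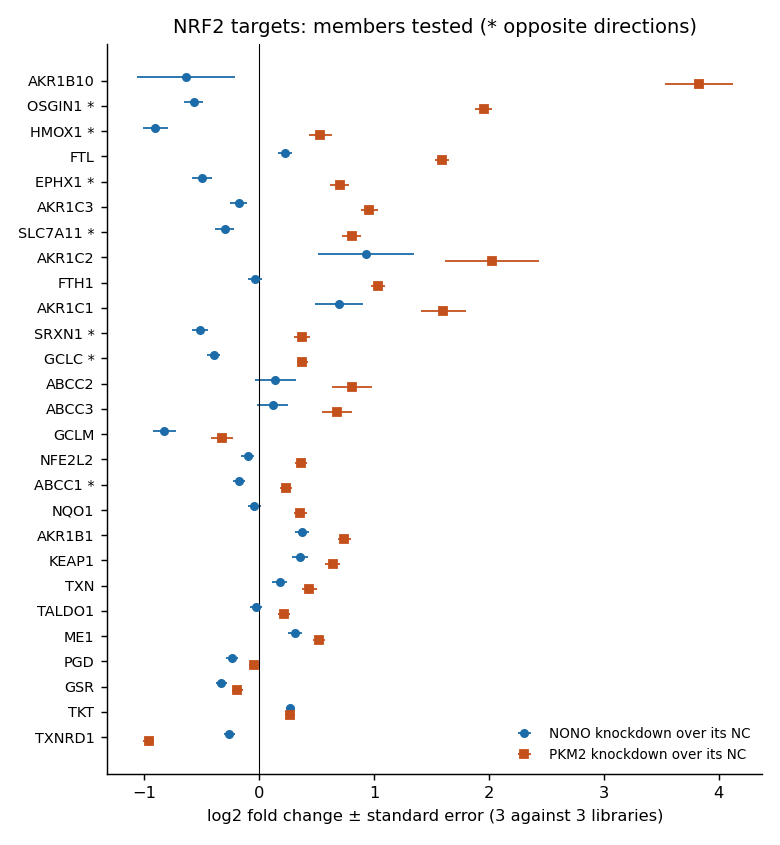
Log2 fold change ± standard error (3 against 3 libraries) of 27 NRF2 targets after NONO knockdown (circles) and PKM2 knockdown (squares), with an asterisk for the 7 opposite members. Squares lie right of the circles for 23 called members drawn, most widely for AKR1B10, OSGIN1 and HMOX1, and left for TXNRD1.

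The core of the antioxidant response element, TGACNNNGC on either strand, was found in 4 of 20 promoters of the NRF2 list (20%) and in 1661 of all 10936 (15.2%). It was found in none of the 4 opposite members with a promoter in RefSeq, and HMOX1, SLC7A11 and ABCC1 had no promoter to search. Only 250 bases before the start and 50 from it were searched, so elements farther away could not be found. Without NC replicate 1 of the NONO experiment 9 members were opposite, and 22 instead of 24 were higher without the third PKM2 knockdown library. ABCC1, a glutathione-conjugate exporter, and SLC7A11 each lost the opposite call in 1 of 12 fits.

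The ATF4 response, which is induced by amino acid shortage and stress of the endoplasmic reticulum, was also shifted, with a median difference of 0.53. Of 22 members 12 (54.5%) were higher and 2 (9.09%) lower, beside 25.7% and 27.4% of all genes. CEBPB, a bZIP transcription factor, was opposite, from 141, 144.6 and 91.6 CPM down to 65.7, 48.7 and 35.5 CPM and from 108, 114 and 105 CPM up to 188, 172 and 196 CPM, a difference of 2.09 ± 0.23 (edgeR, adjusted P = 8.48e-07). The NC libraries of the NONO experiment varied, but the lowest of them lay above every knockdown library. DDIT3, the stress transcription factor CHOP, was at 5.37 to 11.8 CPM in NC and 6.64 to 10.4 CPM after NONO knockdown, and rose from 9.18, 18.7 and 11.3 CPM to 59.3, 47.0 and 56.1 CPM after PKM2 knockdown. ATF3 was called after PKM2 knockdown alone in the same way, at 3.21 to 8.14 CPM and then 15.5 to 23.4 CPM, as was ATF5, at 15.7 to 19.2 CPM and then 43.8 to 46.5 CPM. ATF4 itself was among the members called higher. The amino acid transporters, which share SLC7A11 with both lists, were divided, 8 (36.4%) higher and 7 (31.8%) lower. SLC7A2, an importer of cationic amino acids, was opposite at 0.73 ± 0.09 and -0.50 ± 0.10.

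Integrins are the receptors by which cells hold the extracellular matrix. Of 14 integrin genes, 6 were lower and 2 higher (57.1% called, beside 53.1% of all genes). After NONO knockdown 6 rose and 3 fell, and after PKM2 knockdown 3 rose and 7 fell. ITGA10, ITGB4, ITGB3 and ITGB1 rose after the former and fell after the latter (28.6%, beside 7.32% opposite among all genes). ITGB1, the beta subunit common to most matrix receptors, was at 2069, 2094 and 2134 CPM in NC and 2776, 2806 and 2858 CPM after NONO knockdown. It was at 1826, 1786 and 1781 CPM in NC and 810, 819 and 764 CPM after PKM2 knockdown. The replicates were tight, the changes were 0.42 ± 0.04 and -1.17 ± 0.04, and the difference was -1.59 ± 0.06 (edgeR, adjusted P = 1.08e-12).

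ITGB4, the laminin receptor subunit of hemidesmosomes, was at 6.40, 20.1 and 19.6 CPM in NC and 30.1, 32.4 and 27.0 CPM after NONO knockdown, and at 8.39, 10.4 and 10.8 CPM in NC and 2.31, 2.72 and 2.18 CPM after PKM2 knockdown. ITGA10, a collagen receptor subunit, was at 1.48, 4.69 and 6.10 CPM and then 9.23, 10.3 and 7.45 CPM, against 2.11, 2.02 and 1.85 CPM and then 0.589, 0.220 and 0.445 CPM. In both, NC replicate 1 of the NONO experiment was low, and without it the changes after NONO knockdown were 0.57 and 0.72 instead of 0.95 ± 0.25 and 1.13 ± 0.31, with the opposite call kept. ITGB3, the beta subunit of the vitronectin receptor, lost its opposite call without that library, its change after NONO knockdown being 0.37 instead of 0.61 ± 0.18, and in 2 more of the 12 fits.

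Of 24 laminins and matrix glycoproteins, 12 (50%) were lower and 4 (16.7%) higher, beside 27.4% and 25.7% of all genes. Of the 24, 7 (29.2%) were opposite, beside 7.32% of all genes. TNC, FBN1, LAMA3, LAMC1 and LAMB1 were among those that rose after NONO knockdown and fell after PKM2 knockdown. TNC, tenascin-C, went from 237, 245 and 257 CPM to 331, 351 and 330 CPM, and from 177, 174 and 177 CPM to 59.6, 60.4 and 45.2 CPM. The difference was -2.13 ± 0.11, with NC levels higher in the NONO experiment. SPARC, a matricellular protein, was the reverse member, with log2 fold changes of -0.14 ± 0.05 and 0.82 ± 0.05, and lost the opposite call in 3 of 12 fits. FN1, fibronectin, fell by 1.69 ± 0.10 after PKM2 knockdown and had a change of 0.19 ± 0.09 after NONO knockdown that was not called.

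Collagens were divided, 7 (30.4%) higher and 11 (47.8%) lower of 23, beside 25.7% and 27.4% of all genes. COL4A4 and COL27A1 were raised by NONO knockdown and lowered by PKM2 knockdown, and COL1A1 was the reverse. Of 22 matrix metalloproteinases and their inhibitors 8 were lower and 4 higher (54.5% called, beside 53.1% of all genes). The membrane-bound proteases MMP14 and MMP15 were lower. MMP15 went from 13.1 to 13.3 CPM up to 19.2 to 20.4 CPM and from 13.8 to 15.8 CPM down to 5.81 to 7.55 CPM. MMP14 had log2 fold changes of 0.61 ± 0.05 and -0.26 ± 0.05. Of 15 genes of epithelial-mesenchymal transition and cell adhesion, 9 (60%) were lower and 2 (13.3%) higher. CLDN1, a tight junction protein, was the reverse of most of them, going from 4.53, 7.57 and 6.28 CPM to 4.39, 2.82 and 2.84 CPM and from 4.21, 5.85 and 4.42 CPM to 14.2, 12.3 and 12.5 CPM. ZEB1, a repressor of epithelial genes, had changes of 0.17 ± 0.06 and -0.53 ± 0.06, and its opposite call held in 4 of 12 fits. Among 45 axon guidance genes 19 (42.2%) were lower and 11 (24.4%) higher. EPHA4, an ephrin receptor, was at 5.86 to 6.15 CPM and then 4.23 to 4.86 CPM, against 5.67 to 6.42 CPM and then 12.7 to 15.4 CPM.

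Of the metabolic lists, those of fatty acid synthesis and of glycolysis were mostly lower. In fatty acid synthesis and desaturation 9 of 13 (69.2%) were lower and 3 (23.1%) higher, beside 27.4% and 25.7% of all genes. The desaturases FADS1 and SCD fell by 1.63 ± 0.06 and 1.42 ± 0.10 on the log2 scale after PKM2 knockdown with no call after NONO knockdown. SREBF1, the transcription factor that drives this pathway, was opposite, at 93.5, 127 and 117 CPM and then 154, 128 and 134 CPM, and at 74.8, 73.2 and 77.9 CPM and then 40.8, 40.1 and 40.6 CPM. Its rise after NONO knockdown was within a spread where the highest NC library nearly reached the lowest knockdown library, and without the first NC library no member of the list was opposite. In cholesterol synthesis and uptake 9 of 24 were called (37.5%, beside 53.1% of all genes), 6 (25%) lower and 3 (12.5%) higher. There SC5D, a desaturase of the late sterol steps, had log2 fold changes of -0.55 ± 0.07 after NONO knockdown and -1.45 ± 0.07 after PKM2 knockdown, and HMGCS1, an enzyme at the start of the pathway, had changes of -0.26 ± 0.07 and -0.62 ± 0.07.

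Of 17 glycolysis genes 11 (64.7%) were lower and 2 (11.8%) higher, beside 27.4% and 25.7% of all genes, and none was opposite. GPI and LDHA fell after PKM2 knockdown, by 0.95 ± 0.04 and 0.76 ± 0.04 on the log2 scale, and were at 0.04 and 0.01 after NONO knockdown. PFKL, the liver-type phosphofructokinase, went from 81.0, 96.1 and 97.1 CPM to 160, 166 and 154 CPM after NONO knockdown, a rise of 0.81 ± 0.06, and from 79.2, 82.6 and 83.5 CPM to 86.6, 91.8 and 88.1 CPM after PKM2 knockdown, a change of 0.12 ± 0.06 that was not called. The pentose phosphate pathway had 4 of 7 (57.1%) higher, among them RPE, an epimerase, at 0.28 ± 0.07, and PGLS lower at -0.54 ± 0.10. Hypoxia targets were lower in 13 of 23 (56.5%) and higher in 3 (13.0%). PLOD1, a collagen lysyl hydroxylase, was opposite, from 85.9 to 93.7 CPM up to 112 to 115 CPM and from 91.0 to 93.4 CPM down to 38.3 to 44.3 CPM. CA9, carbonic anhydrase 9, was at 0.321 to 0.587 CPM in the NC libraries of the PKM2 experiment and at 0 in all its knockdown libraries, and at 0.492 to 2.07 CPM in the NONO experiment.

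The MondoA list holds this glucose-responsive transcription factor, its relatives and genes it controls. Of its 8 genes, 5 (62.5%) were lower and 2 (25%) higher, beside 27.4% and 25.7% of all genes. MLXIP, MondoA itself, went from 103, 99.9 and 102 CPM to 133, 127 and 136 CPM and from 93.5, 90.0 and 85.7 CPM to 40.8, 39.9 and 33.6 CPM, a difference of -1.61 ± 0.09 (edgeR, adjusted P = 1.96e-10). MLX, its dimer partner, was opposite in the reverse direction, at -0.17 ± 0.05 and 0.27 ± 0.05, and kept that call in 8 of 12 fits. TXNIP, its best known target, varied among NC libraries (59.9, 284 and 242 CPM, and 74.5, 163 and 87.7 CPM) and was at 24.7 to 31.6 CPM after PKM2 knockdown. Of 75 nuclear-encoded subunits of the respiratory chain 17 were higher and 10 lower (36% called, beside 53.1% of all genes). Without the third PKM2 knockdown library 22 were lower. UQCR11, of complex III, was opposite at -0.52 ± 0.07 and 0.21 ± 0.06.

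Protein turnover was mostly higher. Of 37 proteasome genes 24 (64.9%) were higher and 2 (5.41%) lower, with a median of 0.26. Of 37 lysosome genes 22 (59.5%) were higher and 4 (10.8%) lower, with a median of 0.42. Over all genes 25.7% were higher and 27.4% lower, and in the fifth with the highest mean CPM 40.1% and 28.9%. PSMC3, an ATPase of the proteasome base, was at 157 to 171 CPM and then 186 to 190 CPM, against 138 to 144 CPM and then 287 to 326 CPM, and so rose in both. PSMB1 and PSMC2 fell after NONO knockdown and rose after PKM2 knockdown. NEU1, the lysosomal sialidase, went from 84.3, 81.8 and 79.3 CPM to 64.1, 57.7 and 60.3 CPM and from 88.4, 83.6 and 85.7 CPM to 150, 149 and 158 CPM. Of 24 heat shock proteins and chaperones 12 (50%) were higher and 4 (16.7%) lower. HSPD1, the mitochondrial chaperonin, was opposite at 0.45 ± 0.06 and -0.83 ± 0.06. Without NC replicate 1 of the NONO experiment and knockdown replicate 3 of the other, the proteasome counts were 20 higher and 5 lower.

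Interferon-stimulated and clock genes were mostly higher. Of 29 interferon-stimulated genes 16 (55.2%) were higher and 2 (6.90%) lower, beside 25.7% and 27.4% of all genes. IFIH1, a sensor of double-stranded RNA, was at 2.26 to 3.58 CPM and 1.71 to 3.26 CPM in the NONO experiment and went from 2.82 to 3.31 CPM to 10.2 to 11.9 CPM after PKM2 knockdown. Of 18 circadian clock genes 11 (61.1%) were higher and 2 (11.1%) lower. CRY1, a repressor of the clock, went from 40.1 to 45.9 CPM down to 35.0 to 36.5 CPM and from 40.9 to 43.0 CPM up to 64.4 to 67.9 CPM, and ARNTL, its activator, changed by -0.30 and 0.43. NPAS2, a paralogue of CLOCK, was lower, at -0.99 ± 0.11.

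Of 15 immediate early and AP-1 genes 7 (46.7%) were higher and 4 (26.7%) lower, beside 25.7% and 27.4% of all genes. FOSL1, an AP-1 subunit, fell by 2.16 ± 0.04 on the log2 scale after PKM2 knockdown and was at 0.08 ± 0.04 after NONO knockdown. KLF2 and KLF6, zinc finger factors, were opposite. KLF6 went from 124, 142 and 140 CPM to 229, 233 and 220 CPM and from 112, 146 and 111 CPM to 106, 79.8 and 75.7 CPM. Of 18 p53 targets 7 (38.9%) were higher and 7 (38.9%) lower. TNFRSF10B, a death receptor, was at 188, 213 and 210 CPM and then 155, 157 and 146 CPM, against 184, 211 and 194 CPM and then 370, 362 and 340 CPM. FAS, another death receptor, fell after PKM2 knockdown, by 2.74 ± 0.18, and had a change of -0.22 ± 0.14 after NONO knockdown that was not called. Of 15 BCL2 family genes 8 (53.3%) were higher and 5 (33.3%) lower. PMAIP1, the pro-apoptotic NOXA, rose in both experiments, by 0.52 ± 0.10 and 2.07 ± 0.09, and BOK was opposite at 0.43 ± 0.07 and -0.47 ± 0.07. Among 21 YAP/TAZ targets 9 (42.9%) were higher and 8 (38.1%) lower, with NUAK2, ARHGEF17 and AJUBA opposite in 1 direction and NT5E in the other. Of 24 potassium channel genes 11 (45.8%) were lower and 5 (20.8%) higher. KCNJ14 had changes of -0.61 ± 0.18 and 0.52 ± 0.15.

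Of the 30 clustered histone genes tested 18 (60%) were higher and none lower. Over all genes 25.7% were higher, and 53.1% were called in either direction. HIST1H2BJ was at 0.273 to 1.61 CPM in the NONO experiment, 2.87 to 3.99 CPM in the NC libraries of the PKM2 experiment, and 48.7, 45.2 and 51.6 CPM after PKM2 knockdown. These genes are near-identical copies whose reads can be split between them, most of their transcripts lack a poly(A) tail, and their values are uncertain. Of the opposite list members described in the paragraphs on the lists, the call was lost in some fits that left out 1 library for PALB2 (held in 6 of 12), LAMB1 (8), COL4A4, EPHA4 and SREBF1 (10 each), and BLM, LAMA3, NUAK2 and KCNJ14 (11 each), besides those already given. The other 16 lists had between 43.2% and 64% of members called and medians between -0.23 and 0.23.

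Genes called after PKM2 knockdown alone included some that were nearly lost. MYL9, a regulatory light chain of non-muscle and smooth muscle myosin, was at 53.9, 51.0 and 54.6 CPM and then 48.2, 50.4 and 51.3 CPM in the NONO experiment, and fell from 77.1, 77.0 and 82.2 CPM to 1.81, 1.93 and 2.22 CPM after PKM2 knockdown. The difference was -5.21 ± 0.10 (edgeR, adjusted P = 1.23e-15). SRM, spermidine synthase, was at 79.0 to 98.2 CPM in the NONO experiment and went from 95.1, 86.3 and 90.2 CPM to 5.56, 4.74 and 6.03 CPM. RAB38, a Rab GTPase of melanosome biogenesis, went from 18.4 to 20.2 CPM to 1.17 to 1.52 CPM. KBTBD8, an adaptor of a ubiquitin ligase, rose from 1.55 to 1.73 CPM to 14.8 to 16.4 CPM and stayed between 1.22 and 2.62 CPM in the NONO experiment. LTB4R2, a leukotriene receptor, had 0 counts in the NC libraries of the PKM2 experiment and 0, 20 and 2 after the knockdown, so that 20 of 22 counts lay in 1 library and no fold is given, while the NONO experiment held 268 to 359 counts. It shares 39.5% of its exon bases with CIDEB on the opposite strand, and the gap between the experiments is larger than either knockdown's change.

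Genes called after NONO knockdown alone were fewer and changed less. EIF4EBP2, a repressor of cap-dependent translation, went from 130, 109 and 113 CPM to 38.7, 39.0 and 36.7 CPM after NONO knockdown and was at 101 to 113 CPM and 101 to 117 CPM in the PKM2 experiment. The difference was 1.63 ± 0.10 (edgeR, adjusted P = 8.02e-10). PRDX3, the mitochondrial peroxiredoxin, went from 253, 226 and 236 CPM to 88.5, 92.9 and 95.1 CPM, and SFXN1, a mitochondrial serine carrier, from 152, 134 and 136 CPM to 61.9, 65.1 and 67.0 CPM. In the PKM2 experiment they lay at 281 to 311 CPM and at 144 to 153 CPM, with NC and knockdown libraries close together. ELK4, an ETS factor and partner of SRF, rose from 40.1 to 43.0 CPM to 92.8 to 99.5 CPM, and TIMP3, an inhibitor of metalloproteinases, from 150 to 169 CPM to 299.8 to 334 CPM. ZDHHC18, a palmitoyltransferase, rose from 13.0 to 14.8 CPM to 28.8 to 30.7 CPM. RPL22P1, a processed pseudogene whose reads may be shared with RPL22, was at 14.7 to 19.9 CPM in the NC libraries of the PKM2 experiment and at 0.728 CPM or below in 2 of the 3 of the NONO experiment.

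Of the 1566 genes that moved the same way by different amounts, 845 had a higher and 721 a lower difference. Their median log2 fold changes were 0.17 after NONO knockdown and 0.39 after PKM2 knockdown. The genes described here were picked for large differences, and the first of them are losses. ASIC1, an acid-sensing ion channel, went from 9.88 to 12.3 CPM to 4.86 to 5.33 CPM after NONO knockdown, and after PKM2 knockdown from 10.8 to 11.2 CPM to 0.220 to 0.505 CPM. RASSF2, a Ras-association domain protein, went from 31.7, 32.2 and 34.0 CPM to 17.2, 18.5 and 18.3 CPM and from 33.2, 35.0 and 35.3 CPM to 1.98, 1.41 and 1.70 CPM. TGFB1I1, the focal adhesion protein Hic-5, fell by 0.22 ± 0.06 and by 3.40 ± 0.08 on the log2 scale. BCL7A, a subunit of the SWI/SNF chromatin remodeller, rose in both, from 11.9 to 12.3 CPM to 18.9 to 22.0 CPM and from 6.97 to 9.15 CPM to 53.4 to 56.7 CPM, a difference of 2.07 ± 0.13 (edgeR, adjusted P = 1.03e-09). OASL, an interferon-induced protein, rose by 0.60 ± 0.17 and by 2.41 ± 0.11. Within each experiment these groups did not overlap.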

How the data were processed

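For 12 poly(A) RNA-seq libraries of MDA-MB-231 cells, the authors deposited 1 table per experiment with estimated counts, which are not whole numbers, TPM values and gene lengths. The submitters' processing notes name fastp, HISAT2, StringTie, RSEM, DESeq2, edgeR, limma and the build hg19. The annotation release and strand setting are not given in the sources used here, so overlapping genes, pseudogenes and near-identical copies are uncertain. Since column names recur in both tables, the table gave the experiment of a column, and the targeted gene was checked. The deposited fold changes, P values and group means were not used. The tables share 60558 identifiers, of which 93.9% have equal name and length.

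Estimated counts were rounded. Genes passing filterByExpr over the 4 groups were fitted with group means in edgeR 4.0.16 (R 4.3.3) after TMM normalization, and contrasts were tested by the quasi-likelihood F test. A gene was opposite where the difference and both knockdowns were called at an adjusted P below 0.05 with opposite signs. Alternatives were other scalings and filters, DESeq2 1.42.0, limma 3.58.1 on log2(TPM + 1) or log2(TPM + 0.1), stricter cutoffs, equal annotation, thinned depth, a GC and length correction, a replicate block and each library left out, and leaving out the outlying libraries for each list was added after seeing the data. Named genes were the targets, opposite genes above 2-fold, the 10 opposite genes per direction with the largest smaller change and a mean of at least 1 CPM, 6 genes per other class and direction with the largest difference and at least 5 CPM, and for each list up to 4 called members with the largest difference and the opposite members. ATF4, and a few list members given for their role, were chosen after their values were seen. Some genes these rules cover are not reported here. Lists were described where the share called was at least 1.25 or at most 0.75 times that of all genes, the median was at least 0.25 in size, or a gene above 2-fold in both was held. The members and the 47 lists were chosen with earlier results of these data known. Coordinates come from GENCODE 29 on GRCh38, for location only, and promoters from RefSeq. Intervals cover counting error only. Depth ranges are given with the results, and the procedure was tested on simulated data.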

Additional observations from a re-analysis of the deposited data

Results flagged for a closer look

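Listed here are the 26 of the 1171 opposite genes that were named by the size of their changes. In each, the test of the difference itself, between the change after PKM2 knockdown and that after NONO knockdown, was passed. Among genes lower after NONO knockdown and higher after PKM2 knockdown, the log2 difference was 2.14 for DENND6A, 2.20 for RAB30, 2.71 for NANOS1, 2.51 for DUSP8, 2.87 for TMEM236, 3.18 for SUN3 and 2.08 for SLFN12L. It was 5.18 for TMEM265, 4.61 for TSPAN8, 4.52 for DENND10P1, 2.70 for SLC9A9, 4.07 for PRRT2 and 2.32 for AMH, whose low counts, shared exons or unequal NC groups are given above. For SFT2D3 the fitted value of 11.20 depends on the prior count, since all NONO knockdown libraries were at 0, and is no measure of size.

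In the reverse direction the log2 difference was -2.18 for CSF3, -3.28 for TNFSF15, -2.87 for ASB2, -3.36 for ITGA10, -2.99 for ITGB4, -3.56 for NOX5, -2.74 for MUC5B, -3.50 for CCDC190, -1.90 for OPN3, -2.66 for OGFRP1, -2.43 for NFYC-AS1 and -2.24 for LINC00886. Without NC replicate 1 of the NONO experiment it was -2.96 for TNFSF15, -2.51 for ASB2, -2.95 for ITGA10, -2.61 for ITGB4, -3.14 for NOX5 and -2.33 for MUC5B.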

How the results depend on the processing

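The 8497 calls became 8318 with DESeq2 and 7969 to 8526 with each library left out. The 1171 opposite calls became 1124 with DESeq2, 1469 without both outlying libraries and 878 to 1314 with each left out (435 to 614 for genes lower after NONO knockdown, 396 to 700 for the reverse, and 18 to 28 above 2-fold in both). The reverse class was smallest without the third NC library of the NONO experiment (396) and was 406 without the first NONO knockdown library. On log2(TPM + 1) opposite calls numbered 678, with 257 in the reverse class and 5 above 2-fold, and on log2(TPM + 0.1) 664, 242 and 12. Without a TPM filter, 2672 genes were higher, and 470 were opposite (298, 172 and 3). At an adjusted P below 0.01, 655 were opposite (339, 316 and 11). With a fold difference above 2 and an unadjusted P below 0.05, 2899 genes passed (1009 higher, 34.8% against 48.4%, and 1890 lower), 38 of them opposite (23 and 15). With a fold of at least 1.5, 5145 passed (2167 higher) and 134 were opposite (84 and 50). Stricter cutoffs keep fewer genes by construction, and the cause of the other shifts was not tested. With a replicate block, 8239 genes were called, 1072 were opposite and 23 were above 2-fold. Deviations from the group means had correlations of -0.04 to 0.04 between same-numbered NC and knockdown libraries, so no shared deviation by replicate number was seen. Whether same-numbered libraries were handled together cannot be told from these values, and the labels do not say. Of the values followed for 247 genes, 6252 kept their side of the threshold and 88 lost it, 61 of these on TPM, and none changed sign. Median differences changed sign on TPM for amino acid transporters, for G2/M and mitosis (also without both outlying libraries) and for p53 targets (also with library size alone, without both outlying libraries, without NC replicate 1 and without knockdown replicate 2 of the NONO experiment), and for YAP/TAZ targets over genes of equal name and length.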
